A study of Mus musculus with 36 samples.

Results

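Klhl42, Rab30, Fgfbp3 and Myo16 are the 4 genes, of 21442 in the count table, that were differentially expressed between Zfp266 knockout (KO) and wild-type (WT) mouse embryonic fibroblasts (MEFs). They were chosen by that comparison, with an FDR below 0.05 and a log2 fold change (log2FC) above 1 in size, so their MEF values are given as a description and without a test. The same genes were then followed through reprogramming to induced pluripotent stem cells (iPSCs) and into embryonic stem cells (ESCs), where the rule used no value.

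RNA was sequenced from 36 libraries in 12 groups of 3, formed by 6 stages (MEFs, reprogramming at days 3, 5 and 7, iPSCs and ESCs) and both genotypes. MEFs came from chimeric E12.5 embryos made with Cas9 TNG MKOS ESCs of 129 background, which carry Cas9, a Nanog-GFP reporter and a doxycycline-inducible cassette of Myc, Klf4, Oct4 and Sox2 with mOrange. They received a lentivirus with a non-targeting guide (WT) or a Zfp266 guide (KO), so each KO library up to day 7 was a population of edited cells and may hold unedited ones. The paper reports mostly out-of-frame insertions or deletions in Zfp266 of the KO MEF samples. It also states that the KO of iPSC and ESC clones was checked by genotyping. MEFs were collected 96 h after transduction. Reprogramming cells were mixed with 129 MEFs, grown with 300 ng/ml doxycycline and 10 μg/ml vitamin C, and sorted for mOrange. The paper's MEF medium was supplemented with FGF2 and heparin, and its ESC medium, the base of the reprogramming medium, was not. The iPSCs were 3 clones per genotype, picked at day 15, and the KO ESCs were 3 clones against 3 samples of 1 parental line. The KO ESC clones came from transfection of that line with a guide plasmid. The labels do not say that every replicate was a separate culture, so p-values measure the spread between these samples, which may be technical.

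ZFP266 is a KRAB zinc finger protein, a class of DNA-binding proteins that usually recruit co-repressors to chromatin. The 4 genes belong to unrelated families. Klhl42 encodes a substrate adaptor of CUL3 ubiquitin ligases that has been linked to the microtubule-severing enzyme katanin. Rab30 encodes a small GTPase of the Golgi apparatus. Fgfbp3 encodes a secreted protein that binds fibroblast growth factors (FGFs), which are otherwise held by heparan sulfate at the cell surface. Myo16 encodes an unconventional myosin that is best known from neurons.

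The study's plasmid list marks a Zfp266 guide for detailed analyses, and its use for the KO libraries is taken from that mark only. That guide is shown here. Its site, with the adjacent PAM read from the Zfp266 transcript in capitals, is:
Zfp266 guide site: cagaagaatctataccgagAGG
The 19-base match lies at chr9:20505091-20505109 of GRCm38 on the minus strand, which is also the strand of Zfp266, in coding exon 6 of 9 of the protein-coding transcript Zfp266-201. Among the longest transcripts of 21390 genes, Zfp266 alone matched the guide fully next to an NGG. Fgfbp3 came closest among the 4 genes, with 7 mismatches, a number that 16.7% of genes had or went below. Klhl42, Rab30 and Myo16 each had 8 mismatches at best, a number that 52.0% of genes had or went below. Only transcripts were searched, and introns and intergenic sequence were not used here.

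Repaired cuts leave insertions or deletions that need not lower RNA, so the Zfp266 count is no check of the labels. Its normalised count, the read count divided by the size factor of its library, was 2949 ± 136 (SD, n = 3) in WT and 3200 ± 114 in KO MEFs. It fell in KO iPSCs by 0.39 on the log2 scale (SE 0.07, DESeq2 FDR 9.94e-06) and rose at day 3 by 0.32 (SE 0.08, DESeq2 FDR 0.00883). At the other stages it did not pass FDR 0.05.

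Library totals ranged from 19224103 to 39610939 counts, with the lowest among WT MEFs. A count of 0 allows up to 3 reads, equal to between 2.31 and 5.22 normalised counts, and this floor covers counting error only. KO MEF replicate 3 stood apart from the other KO MEF libraries. Its counts differed from theirs by 99.2 and 103 times the variance that counting gives, against 4.38 between replicates 1 and 2. The 5 epithelial markers (Epcam, Cdh1, Krt8, Krt18 and Cldn6) summed to 414 normalised counts in it, against 2798 and 3033 in the other KO MEFs and 1858 to 2134 in WT MEFs, and Cdh1 was at 0 in it. The sums of other markers also differed there. The 9 neural markers summed to 4679, against 11031 and 11215 in the other KO MEFs, and the 3 measured muscle markers to 2527, against 5420 and 5687. The 5 endothelial markers summed to 738, against 376 and 364, and the 5 macrophage markers to 373, against 546 and 609. None of the 5 epithelial genes passed FDR 0.05 in MEFs with DESeq2 or edgeR, and 0 had an unadjusted p under 0.05. The MEF label otherwise held, since the 10 fibroblast markers summed to between 606077 and 677219 in all 6 MEF libraries and the 10 pluripotency markers to between 57.6 and 79.5.

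The MEF comparison called 4 of the 21020 genes with an FDR as differentially expressed, or 0.019%, and these are the genes described here. Klhl42 had 1040, 1042 and 997 normalised counts in WT MEFs and 2473, 2552 and 1888 in KO MEFs. All KO libraries were above all WT libraries, and replicate 3 was the lowest KO library. The fitted log2FC was 1.17 (SE 0.13), or 2.25-fold. Klhl42 lies at chr6:147091379-147112778 on the plus strand (GRCm38), with 4 exons after transcripts are merged.

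Rab30 followed the same order of libraries. Its normalised counts were 456, 417 and 386 in WT MEFs and 1272, 1302 and 981 in KO MEFs, a log2FC of 1.50 (SE 0.17) or 2.83-fold. Rab30 lies at chr7:92741603-92844535 on the plus strand. A long non-coding RNA, 4632427E13Rik, starts 0.14 kb upstream of it in the opposite direction, and its log2FC in MEFs was 0.91 with a DESeq2 FDR of 0.453.

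Fgfbp3 was much lower in level. It had 67.8, 54.5 and 56.2 normalised counts in WT MEFs and 168, 189 and 93.2 in KO MEFs. The groups did not overlap, but the KO values spread more (coefficient of variation 33.6% against 12.2% in WT). The log2FC was 1.34 (SE 0.22), or 2.54-fold. Fgfbp3 lies at chr19:36917550-36919615 on the minus strand and has 2 exons.

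Myo16 was the only one of the 4 lower in KO MEFs. It had 11, 16 and 32 reads in WT and 5, 8 and 5 reads in KO libraries, or 19.1, 24.2 and 34.0 against 5.74, 8.15 and 5.30 normalised counts. The log2FC was -2.05 (SE 0.44). Myo16 spans chr8:10153911-10634742 on the plus strand with 37 exons. Few reads stand behind these values, and WT replicates 1 and 2 were the shallowest libraries of the series.

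Without KO MEF replicate 3, the MEF log2FC was 1.29 (SE 0.12) for Klhl42, 1.62 (SE 0.18) for Rab30, 1.60 (SE 0.20) for Fgfbp3 and -1.92 (SE 0.51) for Myo16. The first 3 genes had their lowest KO value in that library, in which the epithelial, neural, muscle and macrophage markers were also lowest and the endothelial ones highest. The part of these cell types in the MEF values was not tested. Membership depended on the fit. With only the 6 MEF libraries the DESeq2 FDR was 0.105 for Fgfbp3 and 0.621 for Myo16, so these genes would not have been chosen. That of Myo16 was also above 0.05 without KO replicate 3 (0.193), WT replicate 2 (0.0553) or WT replicate 3 (0.208), and it had no FDR without KO replicate 1 or 2.

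Of the genes just outside the rule, 5 had an FDR below 0.05 but a log2FC within 1, which brings the genes past the FDR to 9 of 21020 (0.0428%). Ccl7, a chemokine, had a log2FC of 0.77 and Cstb, an inhibitor of cathepsins, one of 0.66. Fbxo6, another ubiquitin ligase subunit, stood at 0.60, Arhgef39 at -0.85 and Kif18a, a mitotic kinesin, at -0.49. Klhl42, with 1.17, was the member nearest to the limit of 1.

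**Figure D1:**
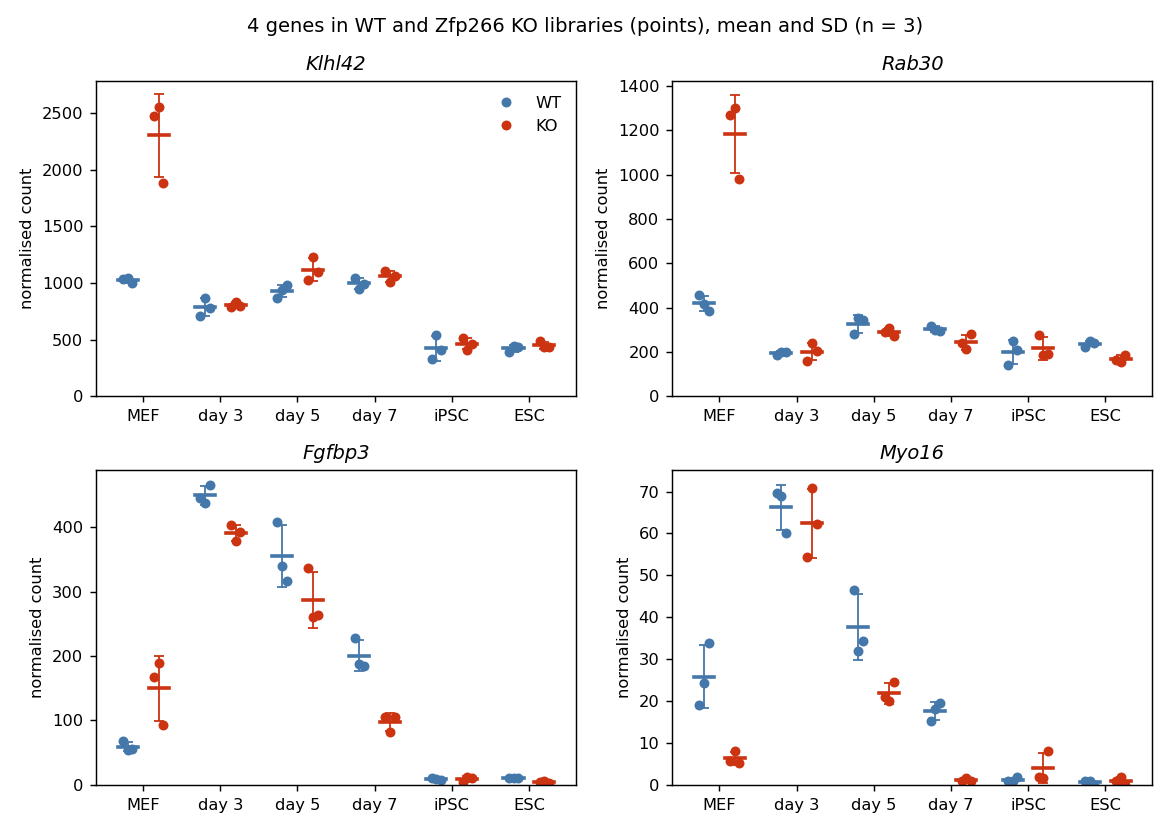
Normalised read counts of Klhl42, Rab30, Fgfbp3 and Myo16 (y axes, each from 0) at the 6 stages (x axes), with WT libraries in blue, KO libraries in red, and bars for the mean ± SD of 3 libraries. KO and WT stand apart for all 4 genes in MEFs, and at day 7 Fgfbp3 and Myo16 are lower in every KO library.

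At day 3, none of the 3 members with a DESeq2 FDR passed it, against 0.493% of all genes tested, nor did any member with edgeR. In DESeq2, 0 had an unadjusted p under 0.05. The share of all genes with such a p is not given here or below, so these counts cannot be judged against it. Myo16 had no FDR because DESeq2 leaves out genes of low mean count from the adjustment. KO and WT libraries did not overlap for 1 of the 4 genes, against 16.2% of genes. For Klhl42 the normalised counts were 708, 866 and 782 in WT and 791, 836 and 799 in KO libraries, a log2FC of 0.04 with a 95% interval of -0.21 to 0.29. The KO range lay inside the WT range.
Rab30 had 188 to 200 in WT and 160 to 239 in KO libraries, with a log2FC of 0.04 and an interval of -0.31 to 0.38. These intervals lie below the MEF estimates of both genes, though that difference was not tested because the MEF values chose the genes. Fgfbp3 had 445, 438 and 466 normalised counts in WT and 403, 379 and 392 in KO libraries. All KO libraries were the lower ones, by a log2FC of -0.20 (SE 0.18, DESeq2 FDR 1). Myo16 had 69.7, 69.0 and 60.1 against 54.3, 70.8 and 62.2, which overlap.

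At day 5, none of the 4 genes passed the FDR in the DESeq2 fit to all libraries or with edgeR, against 7.15% of genes, 2 had an unadjusted p under 0.05, and 2 of 4 did not overlap, against 32.3%. Klhl42 had 869, 941 and 981 normalised counts in WT and 1028, 1229 and 1094 in KO libraries. Every KO library was above every WT library, with a log2FC of 0.26 (SE 0.13, DESeq2 FDR 0.224). In a fit to only the 6 libraries of this day the FDR was 0.0249. Myo16 was the other gene without overlap. It had 46.6, 32.0 and 34.4 in WT and 21.0, 19.9 and 24.7 in KO libraries, a log2FC of -0.78 (SE 0.30, DESeq2 FDR 0.104). Rab30 (280 to 353 in WT, 273 to 308 in KO) and Fgfbp3 (316 to 409 in WT, 260 to 337 in KO) overlapped, with FDRs of 0.692 and 0.369.

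At day 7, Fgfbp3 and Myo16 fell in KO cells. These 2 of the 4 genes passed the FDR, both lower, where 29.4% of all genes passed it and 16.1% did so in that direction. KO and WT libraries did not overlap for 3 of the 4, against 47.4% of genes. Fgfbp3, which had been higher in KO MEFs, had 228, 188 and 185 normalised counts in WT and 105, 81.4 and 105 in KO libraries. The highest KO library was well below the lowest WT library, with a log2FC of -1.04 (SE 0.20, DESeq2 FDR 1.64e-06).

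Myo16 had 15, 18 and 19 reads in the WT and 1, 2 and 1 reads in the KO libraries at day 7. The fitted log2FC was -3.84 (SE 0.78, DESeq2 FDR 1.13e-05). With so few reads the ratio is also given from the summed reads, 4 in KO and 52 in WT libraries. After size factors it was 0.0701, with an exact 95% counting interval of 0.0184 to 0.19. Such counting intervals, here and below, cover counting error only and leave out the spread between libraries. Each KO library was at or under the floor of 3 reads.

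Rab30 was lower in all KO libraries at day 7, with 239, 211 and 280 against 318, 299 and 293 normalised counts in WT. Its log2FC of -0.32 (SE 0.17) did not pass, with a DESeq2 FDR of 0.160 and an interval of -0.66 to 0.02. Klhl42 overlapped, with 1007 to 1107 in KO and 951 to 1043 in WT libraries, a log2FC of 0.09 and an interval of -0.16 to 0.33.

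Markers of pluripotent cells moved with the day 7 values. All 10 of them (Nanog, Esrrb, Zfp42, Dppa4, Dppa5a, Dppa2, Tdgf1, Utf1, Tfcp2l1 and Fgf4) rose in KO cells at FDR 0.05, and their summed normalised count was 32906 to 41599 in KO against 7944 to 12502 in WT libraries. WT iPSCs, where the sum was 118338 to 136368, held little Fgfbp3 or Myo16. Of the 10 fibroblast markers, 1 rose and 3 fell. Of the 9 neural markers (Tubb3, Map2, Nes, Sox1, Pax6, Dcx, Stmn2, Elavl3 and Elavl4), 4 fell and 0 rose, and they summed to 22120 to 23926 in KO against 31823 to 33283 in WT libraries, without overlap and with none at 0. In bulk RNA, fewer cells of a type and less RNA per cell cannot be told apart, and the part of the pluripotent, fibroblast or neural markers in the fall of Fgfbp3 and Myo16 was not tested.

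**Figure D2:**
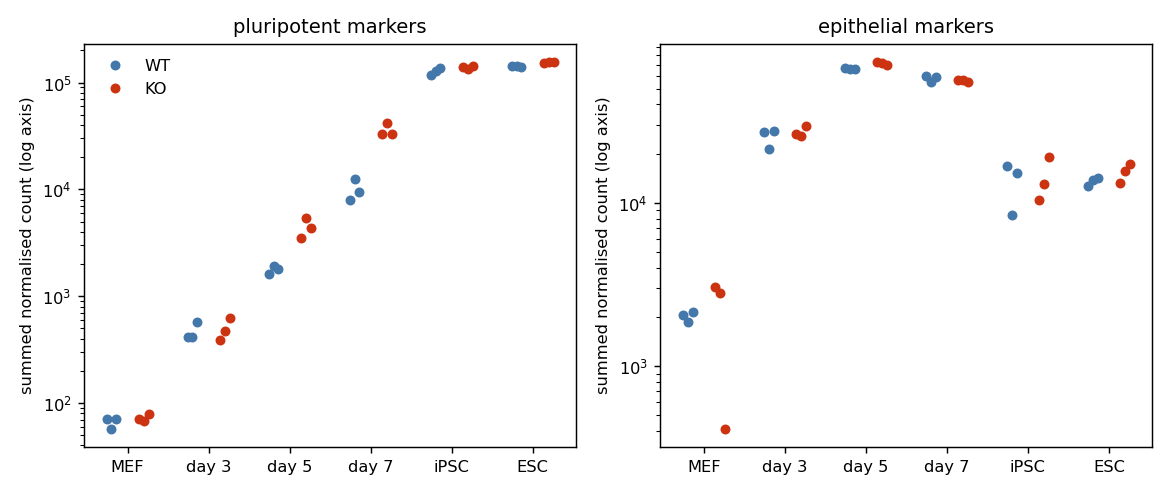
Summed normalised counts (y axes, log scale) of 10 pluripotency and 5 epithelial markers at the 6 stages (x axes), 1 point per library, WT in blue and KO in red. At day 7 the KO libraries lie at 32906 to 41599 pluripotency counts, above the WT libraries, and KO MEF replicate 3 has the fewest epithelial counts, 414.

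In iPSC clones none of the 4 genes passed with DESeq2 or edgeR, against 16.3% of genes, 1 (Myo16) had an unadjusted p under 0.05, and all 4 overlapped, where 19.6% of genes did not. Klhl42 had 325, 537 and 405 normalised counts in WT and 511, 411 and 466 in KO clones. Rab30 had 141, 248 and 209 in WT and 278, 184 and 189 in KO clones. For both genes WT clone 1 was the lowest clone of all. Fgfbp3 had 13, 11 and 8 reads in WT and 4, 15 and 10 in KO clones. Myo16 had 1, 1 and 2 reads in WT and 2, 2 and 8 reads in KO clones, so that KO clone 3 gave most of the difference. The ratio of summed reads, KO over WT, was 3.24 with an exact 95% counting interval of 0.983 to 13.8.

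In ESCs none of the 4 genes passed in the DESeq2 fit to all libraries or with edgeR, against 10.1% of genes, 2 had an unadjusted p under 0.05, and 2 of 4 did not overlap, against 33.3%. Rab30 had 224, 248 and 240 normalised counts in WT and 163, 153 and 188 in KO libraries. Each KO clone was below each WT sample, with a log2FC of -0.50 (SE 0.18, DESeq2 FDR 0.0502). The FDR was 0.0118 in a fit to only the 6 ESC libraries. Fgfbp3 had 11, 11 and 13 reads in WT and 5, 6 and 4 reads in KO clones, a log2FC of -1.28 (SE 0.48, DESeq2 FDR 0.0646). The summed reads, 15 against 35, gave a ratio of 0.413 with an exact 95% counting interval of 0.209 to 0.775. The WT ESCs were samples of 1 line, so their spread does not include differences between clones.
Klhl42 overlapped in ESCs, with 387 to 445 in WT and 432 to 486 in KO libraries and a log2FC of 0.09 (interval -0.17 to 0.35). Myo16 had 0 to 1 read per WT and 0 to 2 reads per KO library, at or under the floor in both groups, and no fold is given.

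**Figure D3:**
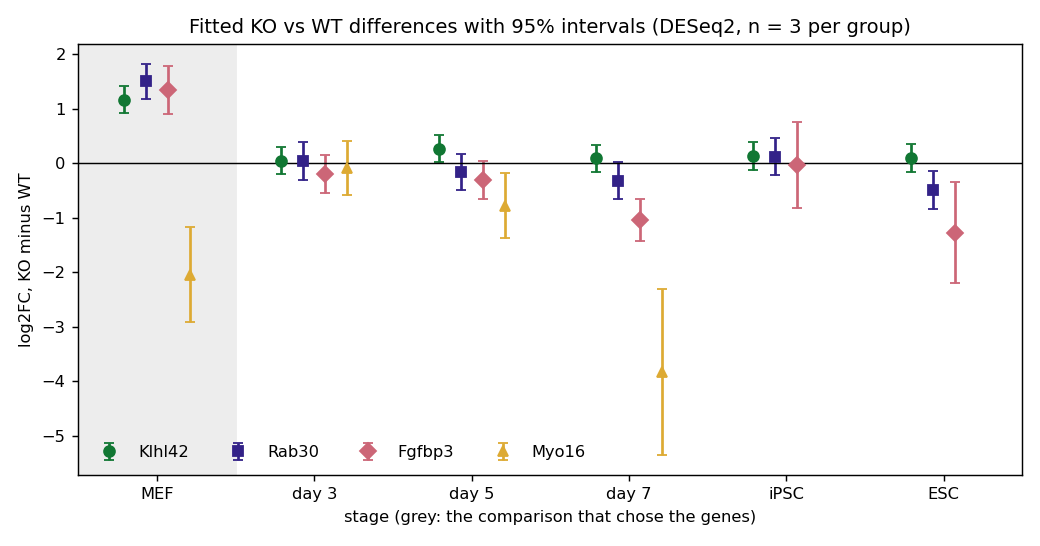
Fitted log2FC, KO minus WT (y axis), of the 4 genes at each stage (x axis), with 95% intervals from DESeq2 and 3 libraries per group; the grey band marks the comparison that chose the genes, and Myo16 is left out in iPSCs and ESCs for lack of reads. Fgfbp3 is at 1.34 in MEFs and at -1.04 at day 7, and Myo16 is at -2.05 and -3.84.

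The changes of the KO effect between consecutive stages were tested as differences of effects in the same fit. From day 3 to day 5 no member passed FDR 0.05 with DESeq2 or edgeR, and 0 had an unadjusted p under 0.05 (0.064% of genes passed the FDR), with estimates from -0.20 for Rab30 to 0.22 for Klhl42 among those with an FDR. From day 5 to day 7, where 5.84% of genes passed, the Fgfbp3 effect became more negative by 0.73 (SE 0.27, DESeq2 FDR 0.0768), which did not pass. A fit to only the libraries of these 2 days gave an FDR of 0.0246 for it. The Myo16 effect became more negative by 3.06 (SE 0.84). DESeq2 gave it no FDR because of its low counts, and edgeR gave an FDR of 0.00931. Its size rests on the 4 reads of the KO libraries at day 7. From day 7 to iPSCs the Fgfbp3 effect moved up by 1.01 (SE 0.45, DESeq2 FDR 0.0939), with 21.9% of genes passing. From iPSCs to ESCs the Rab30 effect moved by -0.62 (SE 0.25, DESeq2 FDR 0.223) and the Fgfbp3 effect by -1.24 (SE 0.63, DESeq2 FDR 0.391), and 1.47% of genes passed. The Klhl42 effect did not pass in any of these tests in the fit to all libraries. From day 7 to iPSCs the Myo16 effect moved up by 5.54 (SE 1.16, DESeq2 FDR 4.1e-05). Myo16 was the only member to pass this test with DESeq2 or edgeR. The size of this difference rests on few reads, since at least 2 of the 4 groups had at most 2 reads in every library. The same held from iPSCs to ESCs, where the Myo16 difference is not given.

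The course in WT cells differed between the genes. From MEFs to day 3, given without a test, Fgfbp3 went up by 2.93 and Myo16 by 1.32 on the log2 scale, while the estimates were -1.10 for Rab30 and -0.39 for Klhl42. From day 3 to day 5, Rab30 rose by 0.73 (SE 0.17, DESeq2 FDR 0.000318) and Myo16 fell by 0.81 (SE 0.27, DESeq2 FDR 0.0148), which made 2 of 4 genes against 25.1% of all genes. Leaving out WT day 3 replicate 1 or 2, or WT day 5 replicate 2 or 3, ended the Myo16 call, with FDRs of 0.0567 to 0.0875. From day 5 to day 7, Fgfbp3 fell by 0.83 (SE 0.18, DESeq2 FDR 0.000109) and Myo16 fell by 1.10 (SE 0.32, DESeq2 FDR 0.00481), again 2 of 4 genes against 24.1%. Without WT day 5 replicate 1 the Myo16 FDR was 0.0533.

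From day 7 to iPSCs all 4 genes fell in WT cells, where 73.5% of genes changed and 37.7% fell. Fgfbp3 fell by 4.41 (SE 0.31, DESeq2 FDR 1.29e-44), from 201 ± 24.0 to 9.37 ± 1.90 normalised counts (SD, n = 3). Klhl42 fell by 1.24 (SE 0.13, DESeq2 FDR 3.05e-21) and Rab30 fell by 0.61 (SE 0.17, DESeq2 FDR 0.000837). Myo16 had 4 reads in WT iPSCs against 52 at day 7, a ratio of 0.0668 with an exact 95% counting interval of 0.0176 to 0.182. From iPSCs to ESCs, where 3.2% of genes passed, none of the 4 genes did with DESeq2 or edgeR, and 0 had an unadjusted p under 0.05.

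On the scale of normalised counts per kb of merged exon, which allows levels of different genes to be compared, the order of the WT means in MEFs was Klhl42 (159), Rab30 (43.5), Fgfbp3 (33.6) and Myo16 (3.26). In KO MEFs the order was the same, at 357, 123, 84.7 and 0.809. Fgfbp3 led at day 3, with 254 per kb in WT against 122 for Klhl42, and was still above Klhl42 at day 5 in WT (200 against 144), but not in KO cells (162 against 173). At day 7 Klhl42 led again (155 against 113), and in WT iPSCs Fgfbp3 was at 5.29 per kb, below Rab30 at 20.7. Myo16 was the lowest of the 4 at every stage in both genotypes. In WT MEFs Rab30 (40.1 to 47.3 per kb) and Fgfbp3 (30.8 to 38.3 per kb) were neighbours in this order whose libraries did not overlap.

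The genes whose course over the 12 group means of log2(normalised count + 1) was most like that of each member are given as a description. For Klhl42 they were St7l, 2810402E24Rik and Mmaa, an enzyme of cobalamin metabolism, with Pearson r of 0.97, 0.96 and 0.95. For Rab30 they were Map1lc3b and Gabarap, which encode ATG8 proteins of autophagosomes, and Hcfc1r1, with r of 0.94, 0.92 and 0.90. For Fgfbp3 they were Gdpd1, Il17ra, an interleukin receptor, and Gm6166, each with r of 0.99. For Myo16 they were Arhgap33, Sh2b2, an adaptor of receptor kinases, and Acan, the proteoglycan aggrecan of cartilage, with r of 0.97, 0.97 and 0.96. The groups share libraries' stages, so such an r follows mainly the change between stages.

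By the distance between the 6 KO log2FC values, Hey2, a Notch target, was nearest to Fgfbp3 (0.41 on the log2 scale), with 1.06 in MEFs, -1.13 at day 7 and -1.15 in ESCs. Dsg1a, a desmosomal cadherin, and Scnn1b, a sodium channel subunit, came next at 0.48 and 0.82. Atf7ip2, Gca and Zfp182 were nearest to Klhl42, at 0.39, 0.44 and 0.45. Rps6kl1, Mme, a cell surface peptidase, and Gadd45b, a stress response gene, were nearest to Rab30, at 0.49, 0.61 and 0.62. For Myo16 no such genes are given, because several of its values rest on few reads. These distances use the MEF values by which the members were chosen.

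The surroundings of the genes were not used to choose them. In all, 47 other genes of the table lay within 500 kb, of which 17 were near Klhl42, 12 near Rab30, 12 near Fgfbp3 and 6 near Myo16. None passed FDR 0.05 in MEFs with DESeq2 or edgeR, where only 0.0428% of all genes passed with DESeq2. With so low a share, none of 47 says little about the surroundings. An unadjusted p under 0.05 was found for 5, and the share of all genes with such a p is not given. At day 7, 2 were higher and 6 lower with DESeq2, or 17.0% against 29.4% of all genes. With edgeR 6 passed. Near Klhl42, Tm7sf3 rose by 0.37 (DESeq2 FDR 4.28e-06), while the mitochondrial ribosome gene Mrps35 fell by 0.19 and Fgfr1op2 fell by 0.20. Near Rab30, the peptidase gene Prcp fell by 0.65 (DESeq2 FDR 1.54e-05) and Gm26862 fell by 0.64. Near Fgfbp3, the mitotic kinesin Kif11 rose at day 5 by 0.49 and at day 7 by 0.62 (DESeq2 FDR 2.94e-13), the opposite direction to Fgfbp3. None of the 6 neighbours of Myo16 passed at any stage with either tool, and 1 had an unadjusted p under 0.05, at day 7. In iPSCs Tm7sf3 and Pcgf5, a Polycomb subunit gene near Fgfbp3, rose by 0.36 and 0.55, and in ESCs Tm7sf3 rose by 0.31. The neighbours that passed made 2.56% against 7.15% of all genes at day 5. The shares were 4.26% against 16.3% in iPSCs and 2.7% against 10.1% in ESCs.

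**Figure D4:**
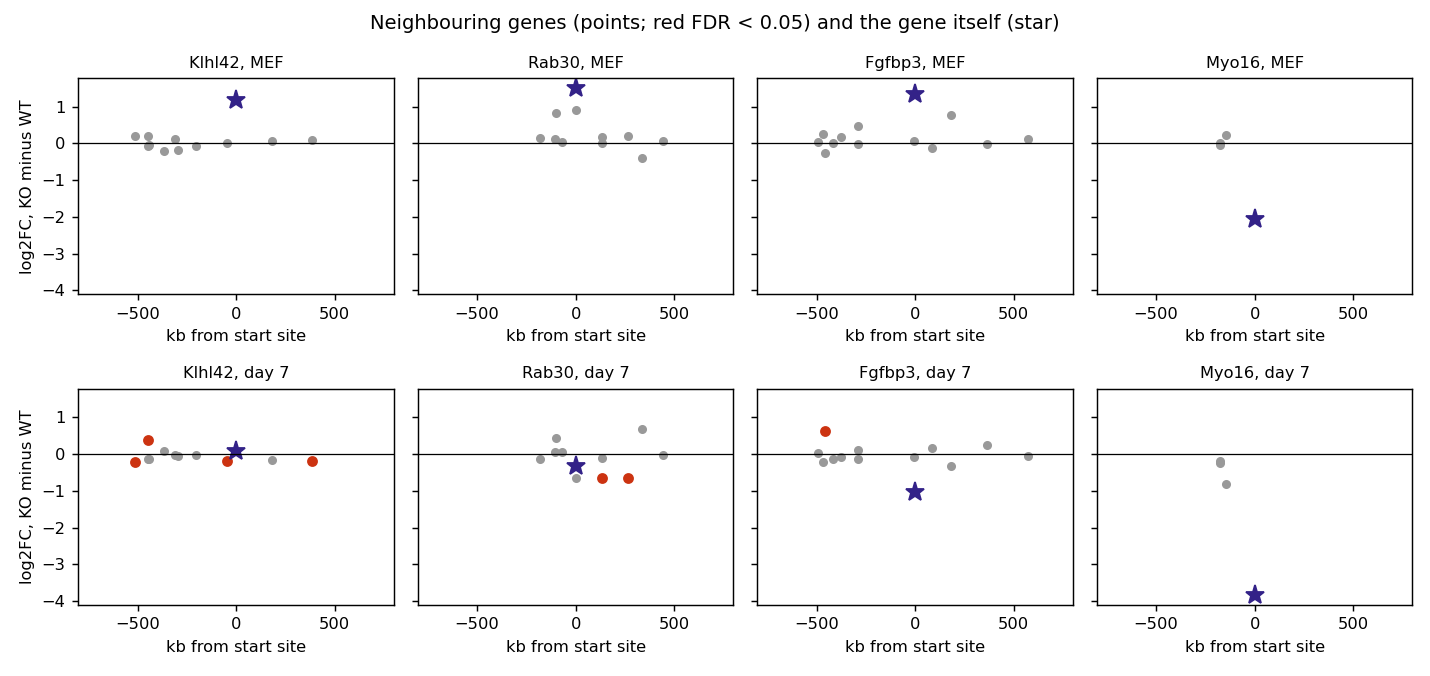
Log2FC, KO minus WT (y axes), of neighbouring genes with a mean of at least 20 normalised counts (points, red past FDR 0.05) against the distance of their start site from that of the member, downstream positive (x axes, kb), in MEFs (top) and at day 7 (bottom); the star is the member. In MEFs, where 0.0428% of all genes passed FDR 0.05, no neighbour is red, and the star for Myo16 lies at -2.05. The Myo16 neighbour Irs2, with its start site 855 kb downstream, lies beyond the x axis and is not shown.

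Promoter sequence was matched in RefSeq (GRCm38.p6) for Fgfbp3 and Myo16, the genes that fell together at day 7, and not for Klhl42 and Rab30. The 250 bases before each start site are shown, 5′ to 3′ on the gene's strand, with motif matches in capitals, for chr19:36919600-36919849 (minus strand) and chr8:10153661-10153910 (plus strand):
Fgfbp3 promoter: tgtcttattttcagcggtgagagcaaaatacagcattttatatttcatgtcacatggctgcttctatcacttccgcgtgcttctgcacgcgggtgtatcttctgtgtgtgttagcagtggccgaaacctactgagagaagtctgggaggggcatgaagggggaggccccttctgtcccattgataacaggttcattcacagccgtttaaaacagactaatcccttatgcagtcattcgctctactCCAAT
Myo16 promoter: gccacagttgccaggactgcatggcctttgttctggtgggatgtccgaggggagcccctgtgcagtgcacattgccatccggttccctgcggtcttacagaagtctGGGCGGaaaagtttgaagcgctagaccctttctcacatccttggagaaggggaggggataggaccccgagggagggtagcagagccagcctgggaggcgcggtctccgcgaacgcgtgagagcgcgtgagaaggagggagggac
Both strands were searched for TGANTCA (AP-1), GGGCGG (GC box), CCAAT, TGACGTCA (CRE), CACGTG (E-box) and AATCCCAGC, a stretch of the B1 SINE repeat. The Fgfbp3 window follows the RefSeq start site, and its last 16 bases lie inside the GENCODE gene given above. It held a CCAAT that starts 5 bases before the RefSeq start, within those bases, a motif that 34.5% of 27025 promoters hold. The Myo16 window held a GGGCGG at 144 bases before it, as 32.9% of promoters do. Neither window held the others, which occur in 6.87% (AP-1), 1.62% (CRE), 6.05% (E-box) and 0.636% (B1 stretch) of promoters. GC content was 47.2% for Fgfbp3 and 62.0% for Myo16, beside a median of 52.0%. The longest transcripts of all 4 genes lacked the B1 stretch on either strand, which 12.4% of 21390 genes hold. A match or its lack says nothing of binding.

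Genes of the same families were followed in lists, described by their counts and medians. Of the CUL3, KLHL and katanin list, 38 of 47 genes were in the table. With DESeq2 and with edgeR, none passed in MEFs or at days 3 and 5, where 4, 2 and 5 had an unadjusted p under 0.05. Of all genes, 0.0428%, 0.493% and 7.15% passed FDR 0.05 with DESeq2 at these stages. Those shares also apply to the lists below. At day 7, 5 rose and 8 fell, or 34.2% against 29.4% of all genes, and the median log2FC was -0.02 beside -0.04 for all genes. Klhl22, an adaptor at the mitotic spindle, rose at day 7 by 1.14 (SE 0.16, DESeq2 FDR 2.98e-11) from 284 to 626 normalised counts, and in iPSCs by 0.62. Klhl25 fell by 0.54 and Klhl7 fell by 0.46 at day 7. Katnal1, a katanin subunit, rose in iPSCs by 0.79 and in ESCs by 0.77. In iPSCs 5 rose and 1 fell (15.8% against 16.3%), and in ESCs 4 rose (12.1% against 10.1%). With edgeR 5 passed in iPSCs and 2 in ESCs.

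Of the Rab GTPases, 54 of 56 were in the table. With both tools none passed in MEFs or at day 3, where 5 and 1 had an unadjusted p under 0.05, and Rab5b, of early endosomes, rose by 0.21 at day 5 (DESeq2 FDR 0.0452), a call that edgeR did not make. At day 7, 6 rose and 11 fell, or 31.5% against 29.4%, with a median of -0.08. With edgeR 14 passed. Rab27a, which serves secretory vesicles, rose by 1.74 (SE 0.24, DESeq2 FDR 1.85e-11) from 163 to 541 normalised counts, and Rab32 fell by 0.77 and Rab2a fell by 0.28. In iPSCs 5 rose and 5 fell (18.5%), with Rab31 lower by a log2FC of -0.67. In ESCs 2 rose and 1 fell (6.0%), where Rab10 rose by 0.34 and Rab6b fell by 0.76.

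Of the FGF-binding proteins and FGF surface partners, all 21 were in the table and none passed in MEFs or at day 3 with either tool, where 2 and 3 had an unadjusted p under 0.05. At day 5, Gpc1, a glypican, fell by 0.89 (SE 0.18, DESeq2 FDR 8.37e-05) and Fgfrl1, an FGF receptor without a kinase domain, fell by 0.66. At day 7, 2 rose and 8 fell, or 47.6% against 29.4%, with a median log2FC of -0.39 against -0.04. With edgeR only 7 of the 21 passed, where 5666 genes did in all, against 6177 with DESeq2. The syndecan Sdc3 fell by 1.35, from 3307 ± 751 to 1296 ± 294 normalised counts (SD, n = 3), Gpc1 fell by 1.04 and Sdc1 fell by 0.63. In ESCs Fgfbp1, the paralogue of Fgfbp3, fell by 1.74 (SE 0.34, DESeq2 FDR 3.12e-05) from 199 to 59.5 normalised counts, and Fgf2 rose by 1.31. There edgeR called 1 gene of the list. In iPSCs 3 rose and 3 fell (28.6% against 16.3%), and edgeR called 5. Fgfbp1 fell by 1.52 (DESeq2 FDR 0.000272), while the syndecan Sdc4, with a lower DESeq2 FDR (1.55e-05), rose by 1.03.

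Of the unconventional myosins and partners of MYO16, 34 of 36 were in the table, and none passed in MEFs or at day 3 with either tool, where 4 and 1 had an unadjusted p under 0.05. At day 7, 9 rose and 10 fell, or 55.9% against 29.4%, with a median of -0.09. Myo18a rose by 1.25 (SE 0.20, DESeq2 FDR 7.04e-09), Ppp1cc, a phosphatase catalytic subunit, rose by 0.33, and Myo19, a myosin of mitochondria, fell by 0.43. In iPSCs 6 rose and 1 fell (20.6%), and in ESCs 4 rose and 2 fell (19.4%), with Myo1g, Myo9a and Cyfip1 higher by log2FC of 1.26, 0.28 and 0.23. With edgeR 7 passed in iPSCs and 4 in ESCs. Lists were chosen with earlier results known, and their shares are descriptions.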

How the data were processed

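RNA was sequenced in single-end runs from a stranded kit. The authors trimmed reads with cutadapt, mapped them to GRCm38.p6 with STAR and deposited raw counts per gene. The deposited normalised signal equals counts over DESeq2 size factors. Whether counting used the strand, and the annotation release, are not given in the sources used here. The authors' log-transformed matrix and their fold changes, p-values and FDRs were not used. The labels name no batch of library preparation, which the study mentions, so none was fitted.

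A 12-level factor was fitted to all 36 libraries with DESeq2 1.42.0 in R 4.3.3 (Wald test, Benjamini-Hochberg FDR over all genes with default independent filtering), as in the study's methods. FDR < 0.05 was taken as passing. Depth was 19224103 to 39610939 counts per library. edgeR 4.0.16, TMM factors, a filter of 10 counts in 3 libraries, a replicate block, only the compared libraries, and leaving out each library were alternatives. Scripts were tested on simulated data. Positions came from GENCODE M21. Groups came from the sample titles. Named genes were the members, Zfp266, the 5 MEF genes next in FDR, 3 per member by likeness and by distance (mean of at least 50 normalised counts), and up to 3 per list or neighbourhood and stage by lowest FDR. One gene that this rule names is not reported here. Members and lists were chosen with earlier results of these data known.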

Additional observations from a re-analysis of the deposited data

Results flagged for a closer look

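In 5 instances the KO and WT libraries of a gene did not overlap at either of 2 stages but stood in opposite order, KO above WT in MEFs and below it later. The difference of the 2 effects was not tested, since the MEF values chose the genes. The MEF part of each instance comes from those same values. At the later stages, KO and WT libraries did not overlap for 16.2% of all genes at day 3, 47.4% at day 7 and 33.3% in ESCs. For Rab30 the log2FC was 1.50 in MEFs, and the effect at day 7 differed from it by -1.82 and that in ESCs by -1.999. For Fgfbp3 the log2FC was 1.34 in MEFs, and the effect differed from it by -1.54 at day 3, by -2.39 at day 7 and by -2.62 in ESCs. Of these later effects, the one of Fgfbp3 at day 7 passed FDR 0.05 in DESeq2 on its own.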

How the results depend on the processing

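The falls of Fgfbp3 and Myo16 at day 7 kept their direction and passed FDR 0.05 under each alternative run. Leaving out one library at a time gave log2FC of -1.11 to -0.93 for Fgfbp3 and -4.21 to -3.65 for Myo16. With only the libraries compared, genes past FDR 0.05 numbered 5 in MEFs (9 in the fit to all libraries), 308 at day 3, 2301 at day 5, 615 in iPSCs, 90 for the difference of effects from day 3 to day 5, 2241 from day 5 to day 7, 49 from iPSCs to ESCs, and 29 for WT ESCs against iPSCs. This fit also called Klhl42 at day 5 (log2FC 0.27), Rab30 in ESCs (-0.51), the change of the Fgfbp3 effect (-0.69) and the Myo16 effect (-3.02) from day 5 to day 7, and the WT changes of Klhl42 (0.26) and Fgfbp3 (-0.33) from day 3 to day 5. edgeR counted 30 genes at day 3, 809 at day 5, 1086 in ESCs, 2, 421 and 63 for the differences of effects from day 3 to 5, day 5 to 7 and iPSCs to ESCs, and 84 for WT ESCs against iPSCs, and passed the Myo16 difference from day 5 to day 7 (-2.90), as did TMM factors (-3.03). The Klhl42 difference of effects from day 7 to iPSCs turned to -0.006 with TMM factors and with edgeR. With only the libraries compared, Fgfbp3 and Myo16 did not pass in MEFs (FDR 0.105 and 0.621). The causes were not tested.

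Same-numbered KO and WT libraries deviated together at days 3, 5 and 7 (r 0.06 to 0.289), where each library correlated best with its own number, a hint from the data, but not every pair reached 0.1, so the numbers were not taken to pair the samples. A replicate block with 1 number across stages gave 18 genes in MEFs and 21 for the difference from day 3 to day 5, and turned the Klhl42 WT change from iPSCs to ESCs to 0.005. A replicate block within stage, chosen after seeing the data, gave 33 in MEFs, 129 at day 3, 29 for the difference from day 3 to day 5 and 403 from iPSCs to ESCs, and passed the Fgfbp3 difference from day 5 to day 7 (-0.73).

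Leaving out one library moved the counts to 3 to 184 in MEFs (184 without KO replicate 1, 106 without KO replicate 2, 13 without KO replicate 3, 3 without WT replicate 2), 32 to 84 at day 3, 664 to 1009 at day 5, 1874 to 4157 in iPSCs and 845 to 1520 in ESCs. The differences of effects gave 4 to 28, 499 to 1094 and 129 to 605 genes from day 3 to 5, day 5 to 7 and iPSCs to ESCs, and WT ESCs against iPSCs 28 to 1862. At day 3 the log2FC ranged from -0.028 to 0.118 for Klhl42, from -0.11 to 0.177 for Rab30 and from -0.188 to 0.006 for Myo16. In iPSCs it ranged from -0.028 to 0.342 for Klhl42, from -0.10 to 0.31 for Rab30 and from -0.42 to 0.31 for Fgfbp3. The Fgfbp3 difference of effects ranged from -0.24 to 0.004 from day 3 to 5, from -0.85 to -0.60 from day 5 to 7, where it passed without WT day 5 replicate 1 (FDR 0.0485), and from 0.62 to 1.35 from day 7 to iPSCs, where it passed without KO iPSC clone 1. The Myo16 difference from day 5 to 7 ranged from -3.43 to -2.88, the Klhl42 difference from -0.12 to 0.25 from day 7 to iPSCs and from -0.25 to 0.12 from iPSCs to ESCs. The WT changes of Myo16 ranged from -0.999 to -0.709 from day 3 to 5 and from -1.20 to -0.91 from day 5 to 7, and that of Klhl42 from -0.16 to 0.21 from iPSCs to ESCs.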
